A study of Mus musculus with 22 samples.

Results

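The 44 antioxidant and redox genes described here are the mouse genes of the NRF2 axis, glutathione synthesis and use, the thioredoxin system, the peroxiredoxins, superoxide dismutases and catalase, glutaredoxins, methionine sulfoxide reductases with Park7, sestrins, the pentose phosphate pathway and ferritin. They were chosen by name, not by their values, and all 44 were found among the 55011 gene symbols of the count table. The libraries were made from 1000 double-sorted Foxp3-YFP+ regulatory T cells (Tregs) each, taken from the visceral fat of male C57BL/6 Foxp3.Cre-YFP mice at ZT0, when the lights came on. Cells labelled Bmal1 KO were set against Bmal1 WT cells, which carry the same Foxp3.Cre-YFP allele, and Foxp3 drives the Cre in that strain. Which part of Bmal1 was deleted is not stated in the labels, nor do they say that replicates came from separate mice, so p-values measure the spread between these libraries, which may be technical.

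For each genotype there were 3 libraries from lean-diet mice aged 18 weeks, 3 from mice aged 18 weeks after 4 weeks of high-fat diet, 3 from mice aged 30 weeks after 16 weeks of high-fat diet, and 2 of cells recovered from visceral fat 9 weeks after adoptive transfer, when the mice were 20 weeks old. High-fat feeding followed 14 weeks of lean diet. The 16-week group was therefore older than the lean group, and length of feeding and age cannot be told apart. The labels name neither the host mice of the transfer nor the source of the transferred cells.

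NRF2, encoded by Nfe2l2, is a transcription factor that KEAP1 holds in the cytosol and marks for degradation until oxidants or electrophiles modify KEAP1. NRF2 then enters the nucleus and raises genes for glutathione synthesis, thioredoxin reduction, NADPH supply and iron storage through antioxidant response elements. Superoxide dismutases turn superoxide into hydrogen peroxide, which catalase, glutathione peroxidases and peroxiredoxins remove, and the last pair are recycled by glutathione and thioredoxin at the cost of NADPH. Visceral fat holds a specialised Treg population that expresses PPARG and the IL-33 receptor and declines in long-standing obesity.

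Levels are TMM-normalized counts-per-million values (CPM), and a fold change is KO over WT, high-fat over lean or transfer over lean on the log2 scale. A gene was called when its adjusted p in edgeR's quasi-likelihood test, with Benjamini-Hochberg adjustment over all genes tested, was under 0.05. Libraries held 1955940 to 3467019 counts in the diet groups and 4814337 to 5990319 in the transfer groups. Arntl, which encodes BMAL1, had 55.2 to 108 CPM in the 9 WT diet libraries and 74.0 to 102 in the 9 KO ones, and its whole-gene count also holds exons outside a deletion, so it does not check the genotype. Nr1d1, a direct BMAL1 target, had 15.8 to 45.2 CPM in WT and 0.652 to 4.40 CPM in KO diet libraries, with no overlap (log2 fold change -3.77, adjusted p = 8.13e-08). All 10 Treg identity genes examined were detected, with Foxp3 group means of 487 to 660.4 CPM.

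Ferritin, thioredoxin and peroxide removal led the set per kilobase of exon, counting all annotated exons of a gene. Per kilobase of exon, the mean level over the 8 groups was highest for Ftl1 at 334 and Fth1 at 271 CPM per kb, the light and heavy chains of the iron store ferritin. Txn1, cytosolic thioredoxin, came next at 168 CPM per kb, followed by Gpx1, cytosolic glutathione peroxidase, at 160.1, Sod1, the copper-zinc superoxide dismutase, at 128, Taldo1, transaldolase, at 107 and Prdx1, a cytosolic peroxiredoxin, at 106. The lowest ranks were those of Hmox1, Gclm, Nqo1 and Slc7a11: Hmox1, heme oxygenase, had 2.60 CPM per kb, Gclm, the modifier subunit of glutamate-cysteine ligase, 1.22, Nqo1, a quinone reductase, 0.489 and Slc7a11, the cystine importer, 0.0878. Nqo1 was at 0 in 9 of 22 libraries and reached 2.71 CPM at most, and Slc7a11 was at 0 in 1 and reached 2.81 CPM, against a floor of 3 counts worth 0.542 to 1.60 CPM. Both were below the low-count filter of the diet libraries, so 42 of 44 genes were tested there, and 43 in the transfer libraries alone. The exons of 10 of the 44 genes, Keap1, Gclm, Gss, Txnrd2, Txnip, Prdx2, Prdx5, G6pdx, Ftl1 and Tkt, overlap exons of other genes, and the library kit does not mark strand, so reads of an overlap cannot be assigned. The order per kb depends on the annotated exon length, 3970 bases for Sod1, 3469 for Fth1 and 1340 for Ftl1. By CPM alone Fth1 led at 940, followed by Sod1 at 507, Ftl1 at 448 and Glrx at 430, while Txn1 had 177. Together the 44 genes took 0.567% to 0.670% of the counts of a library.

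**Figure D1:**
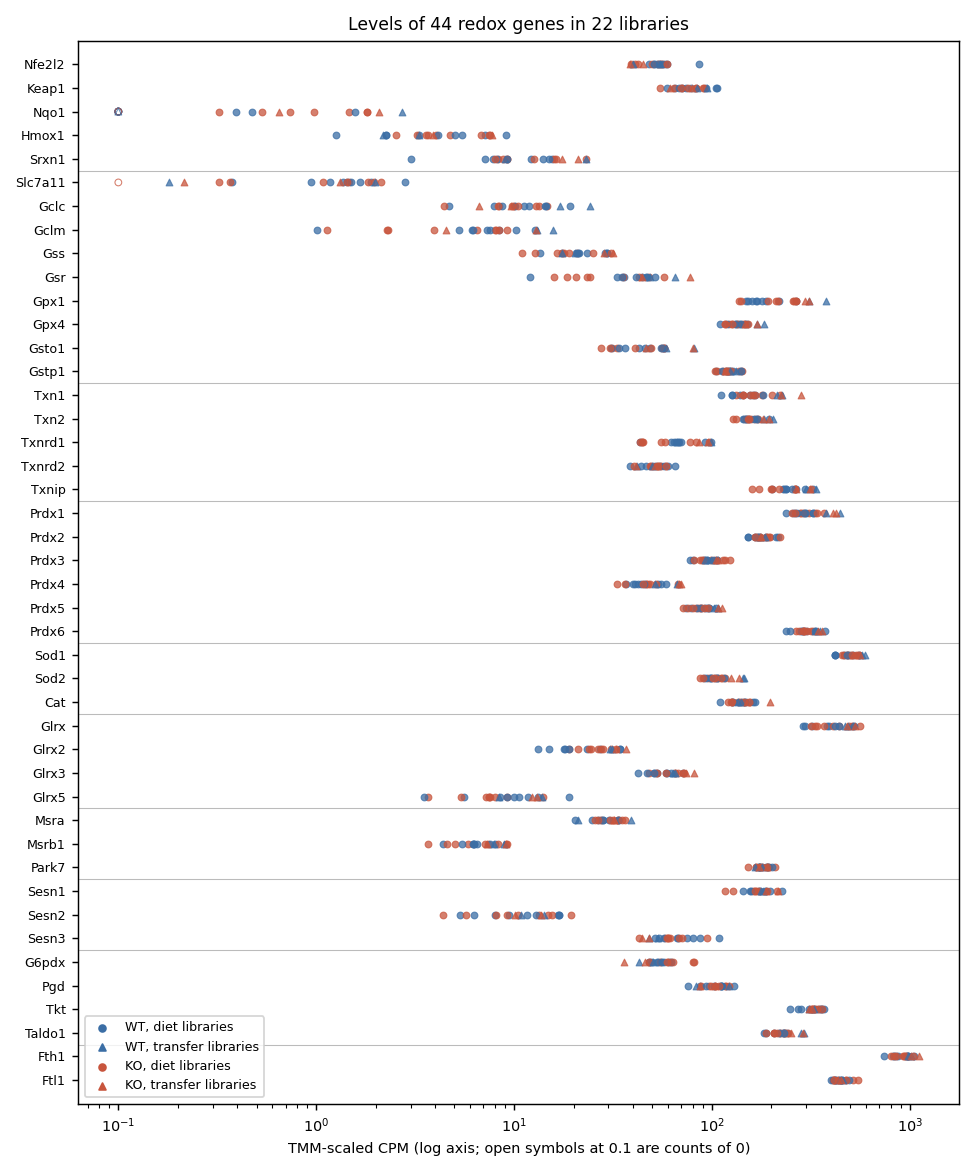
Level of each of the 44 genes in each of the 22 libraries (CPM on a log axis, colours for genotype, triangles for transfer, open symbols for counts of 0), with the genes in rows by role. Fth1 lies farthest right, at 741 to 1119 CPM, and Nqo1 and Slc7a11 farthest left, where no library passed 2.81 CPM.

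Within the NRF2 axis, Keap1 had the highest level, from 63.2 ± 7.71 CPM in lean KO libraries (SD, n = 3) to 89.2 ± 6.94 CPM in transfer WT libraries (SD, n = 2). Srxn1, sulfiredoxin, which repairs over-oxidized peroxiredoxins, had the widest spread of group means there, as the ratio of the highest to the lowest among genes with at least 10 CPM in a group, from 8.27 ± 5.49 CPM in 4-week high-fat WT libraries (SD, n = 3) to 19.3 ± 2.62 CPM in transfer KO libraries (SD, n = 2). In the glutathione group Gpx1 led, from 157 ± 30.3 CPM in 16-week high-fat KO libraries (SD, n = 3) to 344 ± 49.2 CPM in transfer WT libraries (SD, n = 2). Gclm spread most, from 4.42 ± 3.53 CPM in 16-week high-fat KO libraries (SD, n = 3) to 14.4 ± 1.91 CPM in transfer WT libraries (SD, n = 2), at a level where few counts make each value uncertain. In the thioredoxin system Txnip, an inhibitor that binds thioredoxin, was highest in CPM, from 192 ± 29.8 CPM in 16-week high-fat KO libraries (SD, n = 3) to 318 ± 25.7 CPM in transfer WT libraries (SD, n = 2). Txn1 had the widest spread in that group, from 121 ± 8.66 CPM in 16-week high-fat WT libraries (SD, n = 3) to 254 ± 41.8 CPM in transfer KO libraries (SD, n = 2).

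Of the peroxiredoxins, Prdx1 was highest, from 264 ± 31.5 CPM in lean WT libraries (SD, n = 3) to 416 ± 11.7 CPM in transfer KO libraries (SD, n = 2), and Prdx4, the endoplasmic reticulum member, spread most, from 38.2 ± 6.06 CPM in 16-week high-fat KO libraries (SD, n = 3) to 69.2 ± 0.906 CPM in transfer KO libraries (SD, n = 2). Sod1 led the enzymes of superoxide, from 436 ± 27.9 CPM in lean WT libraries (SD, n = 3) to 582 ± 16.0 CPM in transfer WT libraries (SD, n = 2), and Sod2, the mitochondrial manganese enzyme, spread most, from 92.8 ± 7.60 CPM in 16-week high-fat KO libraries (SD, n = 3) to 145 ± 0.958 CPM in transfer WT libraries (SD, n = 2). The lowest mean of Prdx4 and of Sod2 fell in the 16-week KO group and the highest in a transfer group, as it did for Gpx1, Gclm, Txnip, Sesn1 and Glrx5. Among the glutaredoxins, Glrx, which removes glutathione from proteins, was highest, from 331 ± 11.6 CPM in 16-week high-fat KO libraries (SD, n = 3) to 522 ± 36.2 CPM in lean KO libraries (SD, n = 3). The mitochondrial Glrx5, an iron-sulfur cluster protein, spread most, from 6.71 ± 1.14 CPM in 16-week high-fat KO libraries (SD, n = 3) to 12.7 ± 0.552 CPM in transfer KO libraries (SD, n = 2).

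Park7, a protein protective against oxidative stress, was the steadiest of the leading genes, from 172 ± 9.01 CPM in transfer WT libraries (SD, n = 2) to 194 ± 6.80 CPM in 16-week high-fat WT libraries (SD, n = 3). Msra, methionine sulfoxide reductase A, had the wider spread of the 2 genes of that group with at least 10 CPM and ranged from 25.0 ± 4.11 CPM in 4-week high-fat WT libraries (SD, n = 3) to 32.2 ± 4.93 CPM in 4-week high-fat KO libraries (SD, n = 3). Sesn1, a stress-induced inhibitor of mTORC1 signalling, was the highest sestrin, from 136 ± 26.3 CPM in 16-week high-fat KO libraries (SD, n = 3) to 202 ± 19.9 CPM in transfer KO libraries (SD, n = 2). Sesn3, another sestrin, ran the other way, from 46.1 ± 2.79 CPM in transfer KO libraries (SD, n = 2) to 91.9 ± 14.9 CPM in 16-week high-fat WT libraries (SD, n = 3). In the pentose phosphate pathway Tkt, transketolase, had the highest CPM, from 268 ± 17.7 CPM in 16-week high-fat WT libraries (SD, n = 3) to 362 ± 6.46 CPM in 4-week high-fat WT libraries (SD, n = 3). G6pdx, which makes the first NADPH of the pathway, spread most, from 41.0 ± 7.08 CPM in transfer KO libraries (SD, n = 2) to 67.4 ± 12.1 CPM in 16-week high-fat KO libraries (SD, n = 3). Fth1 was the highest ferritin gene and had the wider spread of the pair, from 823 ± 71.6 CPM in lean WT libraries (SD, n = 3) to 1069.8 ± 69.2 CPM in transfer KO libraries (SD, n = 2). These highest and lowest groups were picked after the values were seen and describe the libraries only.

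Promoter sequences were available from RefSeq (GRCm38.p6) for 39 of the 44 genes as 51 windows of 300 bases, from 250 bases before to 50 after a transcription start. Each was searched on both strands for the core of the antioxidant response element (TGACNNNGC), the E-box that CLOCK and BMAL1 bind (CACGTG) and a FOXO site (GTAAACA). The antioxidant core was in 9 of the 51 windows (17.6%) against 12.38% of all 32817 windows, in G6pdx, Gclm, Nfe2l2, Pgd, Prdx1, Sesn2, Sod1, Srxn1 and Txnrd1. The E-box was in 2 windows (3.9% against 7.15%), those of Glrx2 and Prdx4, and the FOXO site in 4 (7.8% against 3.65%), in Glrx2, Sesn1, Slc7a11 and Txnip. The antioxidant core can share letters with the AP-1 site (TGACTCA), which was not searched for across the windows. The antioxidant core match of Prdx1 (GCTGAGTCA) holds the whole AP-1 site on the other strand, and a further copy lies upstream in its window. A match describes the letters and does not show that a factor binds. The windows below belong to genes called in the comparisons that follow: Prdx1 (chr4:116685349-116685648, plus strand) and Sod1 (chr16:90220512-90220811, plus strand) hold the antioxidant core and were higher after transfer, where G6pdx, which holds it too, was lower and Sod2, Taldo1 and Fth1 were higher with no match. Sesn1 (chr10:41810324-41810623, plus strand) holds the FOXO site and was lower at 16 weeks. Txn1 (chr4:57956362-57956661, minus strand) and Gpx1 (chr9:108338830-108339129, plus strand) were called in both comparisons and hold none of the 3 motifs. Capitals mark the antioxidant core in Prdx1 and Sod1 and the FOXO site in Sesn1, on either strand, and every sequence is written 5′ to 3′ on the gene's strand.
Prdx1: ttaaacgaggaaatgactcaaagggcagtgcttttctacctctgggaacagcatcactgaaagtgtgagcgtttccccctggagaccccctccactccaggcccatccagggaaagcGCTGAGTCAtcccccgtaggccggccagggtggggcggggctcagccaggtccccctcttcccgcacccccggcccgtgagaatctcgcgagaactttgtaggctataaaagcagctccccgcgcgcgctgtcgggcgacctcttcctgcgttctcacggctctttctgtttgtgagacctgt
Sod1: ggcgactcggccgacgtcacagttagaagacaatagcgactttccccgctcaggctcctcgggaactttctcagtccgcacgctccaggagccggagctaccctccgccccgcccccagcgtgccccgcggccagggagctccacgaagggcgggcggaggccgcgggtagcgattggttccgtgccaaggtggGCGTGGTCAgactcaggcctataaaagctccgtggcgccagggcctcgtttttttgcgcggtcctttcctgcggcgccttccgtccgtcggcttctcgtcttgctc
Sesn1: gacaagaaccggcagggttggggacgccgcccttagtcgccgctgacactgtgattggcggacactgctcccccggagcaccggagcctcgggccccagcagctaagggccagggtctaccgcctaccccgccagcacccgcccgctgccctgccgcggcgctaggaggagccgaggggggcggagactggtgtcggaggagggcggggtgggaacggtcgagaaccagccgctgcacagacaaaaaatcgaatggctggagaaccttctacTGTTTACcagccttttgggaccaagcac
Txn1: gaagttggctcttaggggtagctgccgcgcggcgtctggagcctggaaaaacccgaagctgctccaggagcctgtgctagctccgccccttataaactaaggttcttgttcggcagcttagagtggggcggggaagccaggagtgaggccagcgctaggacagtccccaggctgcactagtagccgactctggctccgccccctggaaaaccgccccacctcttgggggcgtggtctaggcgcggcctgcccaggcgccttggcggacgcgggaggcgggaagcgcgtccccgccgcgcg
Gpx1: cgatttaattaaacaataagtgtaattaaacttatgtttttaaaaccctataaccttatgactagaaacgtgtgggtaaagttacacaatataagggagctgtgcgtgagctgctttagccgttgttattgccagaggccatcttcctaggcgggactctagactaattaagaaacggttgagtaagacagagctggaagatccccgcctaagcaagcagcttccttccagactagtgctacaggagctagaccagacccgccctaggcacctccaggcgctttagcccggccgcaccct

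Loss of Bmal1 moved none of the redox genes past the threshold, on any diet or after transfer. On the lean diet 0 of 42 were called, at 4 weeks 0 of 42, at 16 weeks 0 of 42, over the mean of the 3 diets 0 of 42 and after transfer 0 of 43. The background was as low: 0.0427, 0.0684, 0.0427, 0.18 and 0.171% of all genes tested were called in those comparisons. At an unadjusted p under 0.05 there were 5, 1, 5 and 2 of 42 redox genes and 1 of 43 after transfer. Of all genes tested these were 7.17, 4.62, 9.15, 7.39 and 6.53%. DESeq2 also called 0 redox genes in each of the 5 comparisons. The median log2 fold change of the redox genes was 0.08, -0.04, -0.06, 0.01 and -0.03 in the same order, and that of all genes was near 0 in each.

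When all 18 diet libraries were used, the 95% interval of the KO against WT difference lay within 1.5-fold in either direction for 34 of the 42 genes. The 8 with wider intervals were Gclc, the catalytic subunit of glutamate-cysteine ligase, Gclm, Glrx5, Gss, glutathione synthetase, Gsr, glutathione reductase, Hmox1, Sesn2 and Srxn1. Their intervals reached past a 1.5-fold difference in at least 1 direction. The genes of smallest p were Txn1 (log2 0.20, adjusted p = 0.465) and Gpx1 (log2 0.21, adjusted p = 0.669) on the higher side, and Nfe2l2 (log2 -0.19, adjusted p = 0.776) and Gsr (log2 -0.35, adjusted p = 0.785) on the lower side. Within single groups the interval stayed inside 1.5-fold for 26 genes on the lean diet, 27 at 4 weeks, 24 at 16 weeks and 21 of 43 after transfer.

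**Figure D2:**
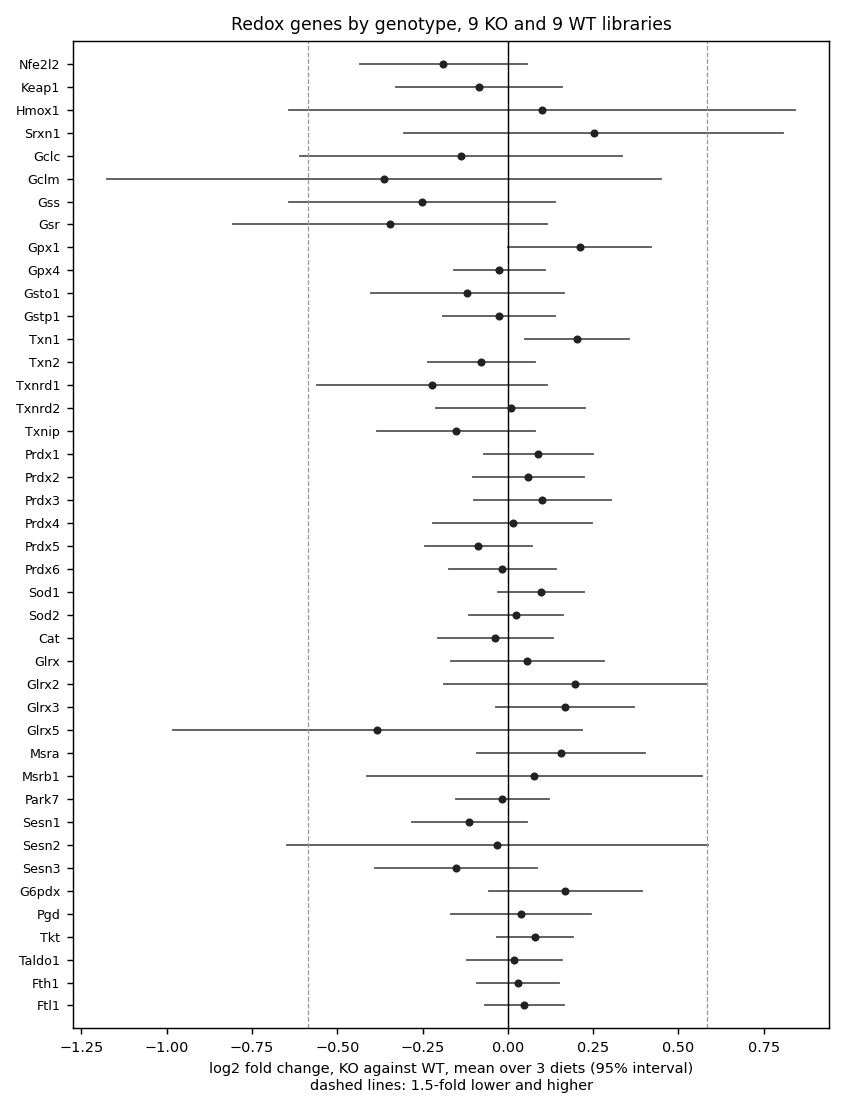
Log2 fold change of each of the 42 tested redox genes between 9 KO and 9 WT libraries, averaged over the 3 diets (points), with 95% intervals (bars) and dashed lines at 1.5-fold. No gene was called, and 34 of 42 intervals lie between the dashed lines.

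Txn1 separated by genotype on the lean diet, Gpx1 did not, and neither was called. Txn1 had 164, 155 and 162 CPM in lean WT libraries and 202, 222 and 180.1 in lean KO ones, which did not overlap, at log2 fold change 0.33 ± 0.13 (SE), adjusted p = 0.555. The share of all genes that separate between groups in this way was not counted. Such separations, here and below, therefore describe the libraries only. Gpx1 had 267, 168 and 169.6 CPM in lean WT and 259.6, 267 and 266 in lean KO libraries, where WT replicate 1 stood at the KO level. Ftl1 (log2 0.24, adjusted p = 0.584) was the next on the higher side, and Keap1 (log2 -0.27, adjusted p = 0.838) and Prdx5 (log2 -0.14, adjusted p = 0.875), a peroxiredoxin of mitochondria, peroxisomes and cytosol, had the smallest p on the lower side. At 4 weeks the smallest p on the higher side belonged to Msra (log2 0.38, adjusted p = 0.999) and Gpx1 (log2 0.30, adjusted p = 0.999). On the lower side they belonged to Gclc (log2 -0.86, adjusted p = 0.999) and Nfe2l2 (log2 -0.34, adjusted p = 0.999).

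At 16 weeks Glrx3, a cytosolic glutaredoxin of iron handling, had 46.9, 51.1 and 42.2 CPM in WT and 72.3, 71.4 and 58.7 in KO libraries. All KO values stood above all WT values, and the difference still missed the threshold (log2 fold change 0.53 ± 0.17 (SE), adjusted p = 0.311). Tkt followed at log2 0.27 and adjusted p = 0.338. Gsr had 41.6, 51.8 and 35.0 CPM in WT and 23.4, 16.0 and 20.5 in KO libraries, lower in every KO library but not called (log2 fold change -1.10 ± 0.39 (SE), adjusted p = 0.358), and with no low-count filter it was the 1 redox gene called. Txnip was next on the lower side (log2 -0.45, adjusted p = 0.485). After transfer the smallest p were those of Gss (log2 0.66, adjusted p = 0.769) and Cat (log2 0.32, adjusted p = 0.826), catalase, on the higher side and Gclc (log2 -1.34, adjusted p = 0.633) and Keap1 (log2 -0.35, adjusted p = 0.858) on the lower side. Gss and Keap1 are among the genes with overlapping exons.

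The difference between genotypes did not change detectably with diet. The test of that difference called 0 of 42 redox genes and 0% of all genes for 4 weeks against lean, and 0 of 42 and 0% for 16 weeks against lean. At an unadjusted p under 0.05 there were 3 and 2 of 42 redox genes, against 4.56 and 8.49% of all genes tested. DESeq2 called 0 of the redox genes in both. For 4 weeks the smallest p were those of Msra (log2 0.32) and Prdx5 (0.18) on the positive side and Ftl1 (-0.35) and Gclc (-1.42) on the negative side, each with an adjusted p of 1. For 16 weeks they were those of Glrx3 (log2 0.41, adjusted p = 0.658), Tkt (log2 0.21, adjusted p = 0.675), Gsr (log2 -1.30, adjusted p = 0.515) and Glrx (log2 -0.62, adjusted p = 0.521).

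High-fat feeding for 4 weeks changed no redox gene past the threshold, in WT, in KO or in their mean (0 of 42 each), and 0% of all genes were called by edgeR in each of the 3 comparisons. At an unadjusted p under 0.05 there were 0, 3 and 4 of 42 redox genes against 5.59, 7.15 and 8.04% of all genes tested. DESeq2 called 0 redox genes in each. In the mean of both genotypes the smallest p were those of Txn1 (log2 -0.24, adjusted p = 0.455) and Gpx4 (log2 -0.21, adjusted p = 0.472), the glutathione peroxidase of membrane lipids, on the lower side, and Keap1 (log2 0.28, adjusted p = 0.655) and Prdx6 (log2 0.15, adjusted p = 0.727) on the higher side. In WT they were those of Gclc (log2 0.76, adjusted p = 0.903), Prdx1 (log2 0.25, adjusted p = 0.903), Prdx5 (log2 -0.27, adjusted p = 0.888) and Gpx4 (log2 -0.21, adjusted p = 0.903). In KO they were those of Txn1 (log2 -0.42, adjusted p = 0.481) and Ftl1 (log2 -0.32, adjusted p = 0.481) on the lower side. On the higher side they were those of Keap1 (log2 0.39, adjusted p = 0.744) and Prdx6 (log2 0.13, adjusted p = 0.904).

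After 16 weeks of high-fat diet, 4 of 42 redox genes were lower than on the lean diet in the mean of both genotypes and 0 were higher. They were Txn1, Gpx1, Sesn1 and Gsto1, with log2 fold changes between -0.58 and -0.39. Of all genes tested 6.63% were called in this comparison, 3.72% as lower and 2.92% as higher, and at an unadjusted p under 0.05 there were 10 of 42 redox genes against 20.1% of all genes. The median log2 fold change was -0.09 over the redox genes, 29 of 42 of them negative, and close to 0 over all genes. In bulk libraries fewer cells of a type and less RNA per cell cannot be told apart.

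Txn1 had 164, 155 and 162 CPM in lean WT, 202, 222 and 180.1 in lean KO, 111, 127 and 126 in 16-week WT and 165, 144 and 143 in 16-week KO libraries. Each 16-week WT library stood below each lean WT one, and the same held in KO, giving log2 fold change -0.41 ± 0.09 (SE), adjusted p = 0.0069. Gpx1 had 267, 168 and 169.6 CPM in lean WT, 259.6, 267 and 266 in lean KO, 148, 189 and 153 in 16-week WT and 140.3, 191 and 138 in 16-week KO libraries. In KO the groups did not overlap, whereas in WT they did, and the fold change was -0.53 ± 0.12 (SE, adjusted p = 0.0112). Sesn1 had 188, 175 and 227 CPM in lean WT, 213, 162 and 169.5 in lean KO, 157, 156 and 144 in 16-week WT and 116, 166 and 127 in 16-week KO libraries. The WT groups did not overlap, KO replicate 2 at 16 weeks reached into the lean range, and the fold change was -0.39 ± 0.10 (SE, adjusted p = 0.0194). Gsto1 had 57.5, 55.2 and 42.7 CPM in lean WT, 57.6, 55.8 and 57.4 in lean KO, 30.9, 56.2 and 34.0 in 16-week WT and 40.7, 30.4 and 27.4 in 16-week KO libraries. Gsto1, an omega-class glutathione transferase, did not overlap between the KO groups, while WT replicate 2 at 16 weeks stood at the lean level (log2 fold change -0.58 ± 0.17 (SE), adjusted p = 0.0373).

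**Figure D3:**
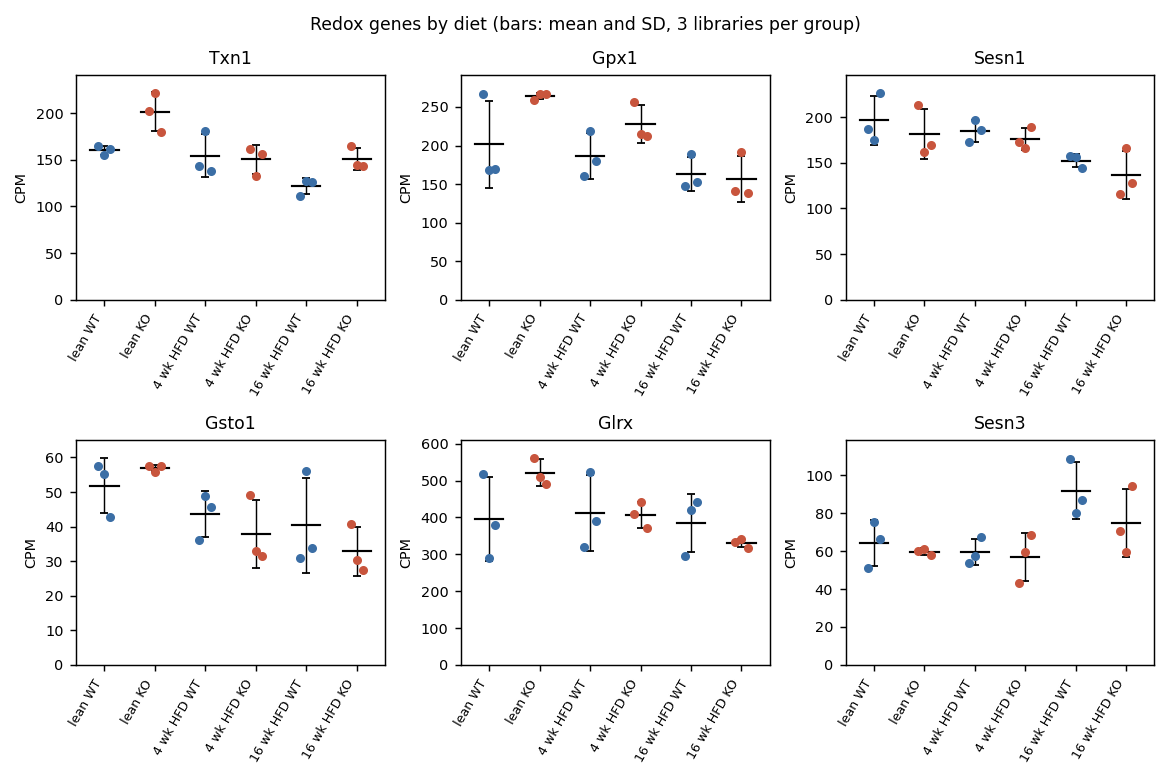
CPM of 6 redox genes in each of the 18 diet libraries (points), with group mean and SD (bars). Txn1, Gpx1 and Sesn1 fall to their lowest group means at 16 weeks (121, 157 and 136 CPM), while Sesn3 has its highest diet group mean in 16-week WT libraries (91.9 CPM).

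Near the threshold in the mean of both genotypes were Tkt (log2 -0.20, adjusted p = 0.0772) and Sesn3 (log2 0.42, adjusted p = 0.0827). Sesn3 had 51.4, 75.2 and 66.5 CPM in lean WT, 60.1, 61.2 and 57.9 in lean KO, 109, 80.0 and 87.1 in 16-week WT and 70.5, 59.3 and 94.2 in 16-week KO libraries. Its WT groups did not overlap and its KO groups did. Of the role groups, all 5 tested thioredoxin genes and 6 of 8 glutathione genes had a negative log2 fold change, with medians of -0.12 and -0.39. The 4 tested genes of the NRF2 axis had a median of 0.01 and the 2 ferritin genes one of 0.01, and 0 of these 6 were called.

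By genotype, 3 of 42 genes were lower at 16 weeks in KO (5.95% of all genes called, 3.59% as lower and 2.36% as higher) and 0 of 42 in WT (0.0855%). In KO these were Gpx1 (log2 fold change -0.76 ± 0.17 (SE), adjusted p = 0.0122), Glrx (log2 fold change -0.66 ± 0.19 (SE), adjusted p = 0.0382) and Gsto1 (log2 fold change -0.80 ± 0.24 (SE), adjusted p = 0.0477). Glrx had 562, 511 and 492 CPM in lean KO and 332, 341 and 318 in 16-week KO libraries, a separation that its lean WT libraries at 517, 290.5 and 380.0 and 16-week WT libraries at 296, 419 and 441 did not show. Txn1 just missed (log2 -0.42, adjusted p = 0.0513). On the higher side in KO the smallest p were those of Keap1 (log2 0.36, adjusted p = 0.361) and Sesn3 (log2 0.32, adjusted p = 0.412). In WT 5 of 42 redox genes had an unadjusted p under 0.05, against 8.76% of all genes tested, and DESeq2 called 0 redox genes. The smallest p in WT were those of Tkt (log2 -0.31, adjusted p = 0.244), Txn1 (log2 -0.40, adjusted p = 0.267), Sesn3 (log2 0.51, adjusted p = 0.428) and Fth1 (log2 0.24, adjusted p = 0.466). Gene for gene, the difference between WT and KO in the response to 16 weeks was not called for any redox gene by the interaction test above.

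Several features of the libraries moved with the 16-week groups. At an equal depth of 1900000 counts, 18855 to 19087 genes were detected in lean WT, 18018 to 18784 in lean KO, 18373 to 20899 in 16-week WT and 19530.1 to 21211 in 16-week KO libraries. The sum of 5 B cell genes, all detected and carried mostly by Ighm, was 317 to 485 CPM in lean WT, 344 to 369 in lean KO, 382 to 944 in 16-week WT and 782 to 1245 in 16-week KO libraries. The sum of 8 macrophage genes was 3.77 to 12.5 and 10.3 to 17.6 CPM in lean WT and KO libraries, and 10.6 to 12.6 and 7.56 to 16.3 at 16 weeks. The sum of 6 endothelial genes was 63.5 to 80.6 and 44.1 to 79.6 CPM in lean WT and KO, and 53.8 to 165 and 132 to 259 at 16 weeks. Pecam1, which T cells also express, carried most of that sum, with group means of 68.9 and 55.1 CPM in lean WT and KO. At 16 weeks Pecam1 had 89.0 and 132 CPM, while Cdh5 had 0.139 and 0 against 0.229 and 1.69. Fabp4, Cldn5, Kdr and Egfl7 had 24.1, 18.2, 5.93 and 5.83 CPM in 16-week KO, each above both of its lean means. Single libraries there reached 53.3 CPM for Fabp4 and 38.1 for Cldn5. In 16-week WT, Fabp4 and Kdr were above both lean means, and Cldn5 and Egfl7 were below them. The 6 stromal genes summed to 128 CPM in 1 library of 16-week KO, against 2.93 to 5.18 and 4.25 to 7.81 on the lean diet. Mitochondrial genes took 0.703 to 0.789% and 0.702 to 0.854% of the counts in lean WT and KO and 0.854 to 0.864% and 0.800 to 1.04% at 16 weeks, so that the WT groups did not overlap and the KO groups did. Fat Treg genes differed as well: Klrg1 had group means of 1084 and 1486 CPM in lean WT and KO against 854 and 440.1 at 16 weeks, and Pparg 64.6 and 73.8 against 20.7 and 15.6. The part of these features in the redox differences was not tested. Without the 3 libraries at 16 weeks with the most genes (WT 3, KO 1 and KO 3), 0 redox genes were called in the mean, with Txn1 at log2 -0.46 (adjusted p = 0.0853) and Gpx1 at -0.36 (adjusted p = 0.315). The 16-week KO group then held 1 library, KO 2, which was assumed to vary like the other groups, so this count does not show what the libraries left out contributed. Leaving out lean KO 1, 16-week WT 3 or 16-week KO 3 left 2 of the 4 genes of the mean, Gpx1 and Txn1. In KO alone, leaving out lean KO 1 or 2 left Gpx1, leaving out 16-week KO 1 left Gsto1, and leaving out 16-week KO 3 left 0. Glrx lost its call whichever of the 6 KO libraries was left out, and in the mean Gsto1 kept its call in 3 and Sesn1 in 7 of the 12 fits without 1 library.

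Between 16 and 4 weeks of high-fat diet, in the mean of both genotypes, 0 of 42 redox genes were called by edgeR, where 2.12% of all genes were. The smallest p were those of Tkt (log2 -0.25, adjusted p = 0.0512), Sesn1 (log2 -0.32, adjusted p = 0.105), Sesn3 (log2 0.51, adjusted p = 0.0588) and Fth1 (log2 0.17, adjusted p = 0.259). At an unadjusted p under 0.05 there were 8 of 42 redox genes against 13.8% of all genes tested, and DESeq2 called 2, Sesn3 and Tkt. Tkt had 357, 369.6 and 360.4 CPM in 4-week WT, 339.9, 359.7 and 318 in 4-week KO, 273, 249 and 283 in 16-week WT and 329, 323 and 319.8 in 16-week KO libraries. The WT libraries separated and the KO libraries overlapped. Without 16-week WT 2 the count was 1, and without 16-week KO 2 it was 2.

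Cells recovered after transfer had higher levels of several peroxide and superoxide enzymes than resident cells of lean mice. In the mean of both genotypes 8 of 42 redox genes were higher, Prdx1, Sod2, Txn1, Gpx1, Sod1, Taldo1, Prdx6 and Fth1, and 1 was lower, G6pdx. The folds were small, from 1.16 for Fth1 to 1.45 for Prdx1. Of all genes tested 16.2% were called, 7.35% as higher and 8.81% as lower. At an unadjusted p under 0.05 there were 18 of 42 redox genes against 30.1% of all genes. The median log2 fold change was 0.23 over the redox genes, 32 of 42 of them positive, and -0.02 over all genes. In that mean all 8 tested glutathione genes, all 4 glutaredoxins and 3 of 3 genes of the superoxide dismutase and catalase group had a positive log2 fold change, of which 1, 0 and 2 were called. Among these, Gss (-0.32) and Cat (-0.09) were negative in WT alone, and Gclc (-0.56), Glrx (-0.045) and Gstp1 (-0.02) in KO alone. Of the pentose phosphate genes G6pdx, Pgd and Tkt were negative in both genotypes and Taldo1 was positive in both.

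Prdx1 had 298, 257 and 237 CPM in lean WT, 280.5, 311 and 332 in lean KO, 376 and 443 in transfer WT and 408 and 425 in transfer KO libraries. All 4 transfer libraries stood above all 6 lean ones (log2 fold change 0.54 ± 0.10 (SE), adjusted p = 0.000688). Sod2 had 103, 97.8 and 98.8 CPM in lean WT, 107, 112 and 117 in lean KO, 146 and 145 in transfer WT and 125 and 138 in transfer KO libraries. Again the transfer libraries did not overlap the lean ones, at log2 fold change 0.38 ± 0.09 (SE), adjusted p = 0.00332. Sod1 had 468, 418 and 421 CPM in lean WT, 485, 457 and 507 in lean KO, 571 and 594 in transfer WT and 519 and 562 in transfer KO libraries. Each transfer library was above each lean one, the lowest by a narrow margin (log2 fold change 0.29 ± 0.08 (SE), adjusted p = 0.0135). Prdx6 had 298, 238 and 294 CPM in lean WT, 267, 293 and 290.3 in lean KO, 333 and 351 in transfer WT and 359.7 and 342 in transfer KO libraries. Prdx6, which reduces phospholipid peroxides, separated likewise (log2 fold change 0.31 ± 0.10 (SE), adjusted p = 0.0345).

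Txn1 had 164, 155 and 162 CPM in lean WT, 202, 222 and 180.1 in lean KO, 226 and 214 in transfer WT and 224 and 283 in transfer KO libraries. The transfer WT libraries exceeded all lean WT ones, and the lower transfer KO library was only just above the highest lean KO one (log2 fold change 0.39 ± 0.10 (SE), adjusted p = 0.00766). Gpx1 had 267, 168 and 169.6 CPM in lean WT, 259.6, 267 and 266 in lean KO, 309 and 379 in transfer WT and 296 and 309 in transfer KO libraries. The 4 transfer libraries were the 4 highest, with lean KO and lean WT replicate 1 close under them (log2 fold change 0.48 ± 0.13 (SE), adjusted p = 0.0124). Taldo1 had 240.3, 205 and 188 CPM in lean WT, 229.5, 234 and 242 in lean KO, 281 and 293 in transfer WT and 250.3 and 287 in transfer KO libraries. All transfer libraries exceeded all lean ones (log2 fold change 0.32 ± 0.09 (SE), adjusted p = 0.0142). Fth1 had 857, 741 and 872 CPM in lean WT, 969.7, 938 and 953 in lean KO, 977 and 1012 in transfer WT and 1021 and 1119 in transfer KO libraries. All 4 transfer libraries stood above all 6 lean ones, the lowest by little, and the adjusted p lay at the edge of the threshold (log2 fold change 0.22 ± 0.08 (SE), adjusted p = 0.0499). G6pdx had 53.7, 55.6 and 60.8 CPM in lean WT, 54.6, 48.4 and 80.4 in lean KO, 42.8 and 50.2 in transfer WT and 36.0 and 46.0 in transfer KO libraries. G6pdx was lower in 4 of 4 transfer libraries than the lean WT range and overlapped the lean KO range (log2 fold change -0.43 ± 0.15 (SE), adjusted p = 0.048), and its exons overlap those of Ikbkg.

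**Figure D4:**
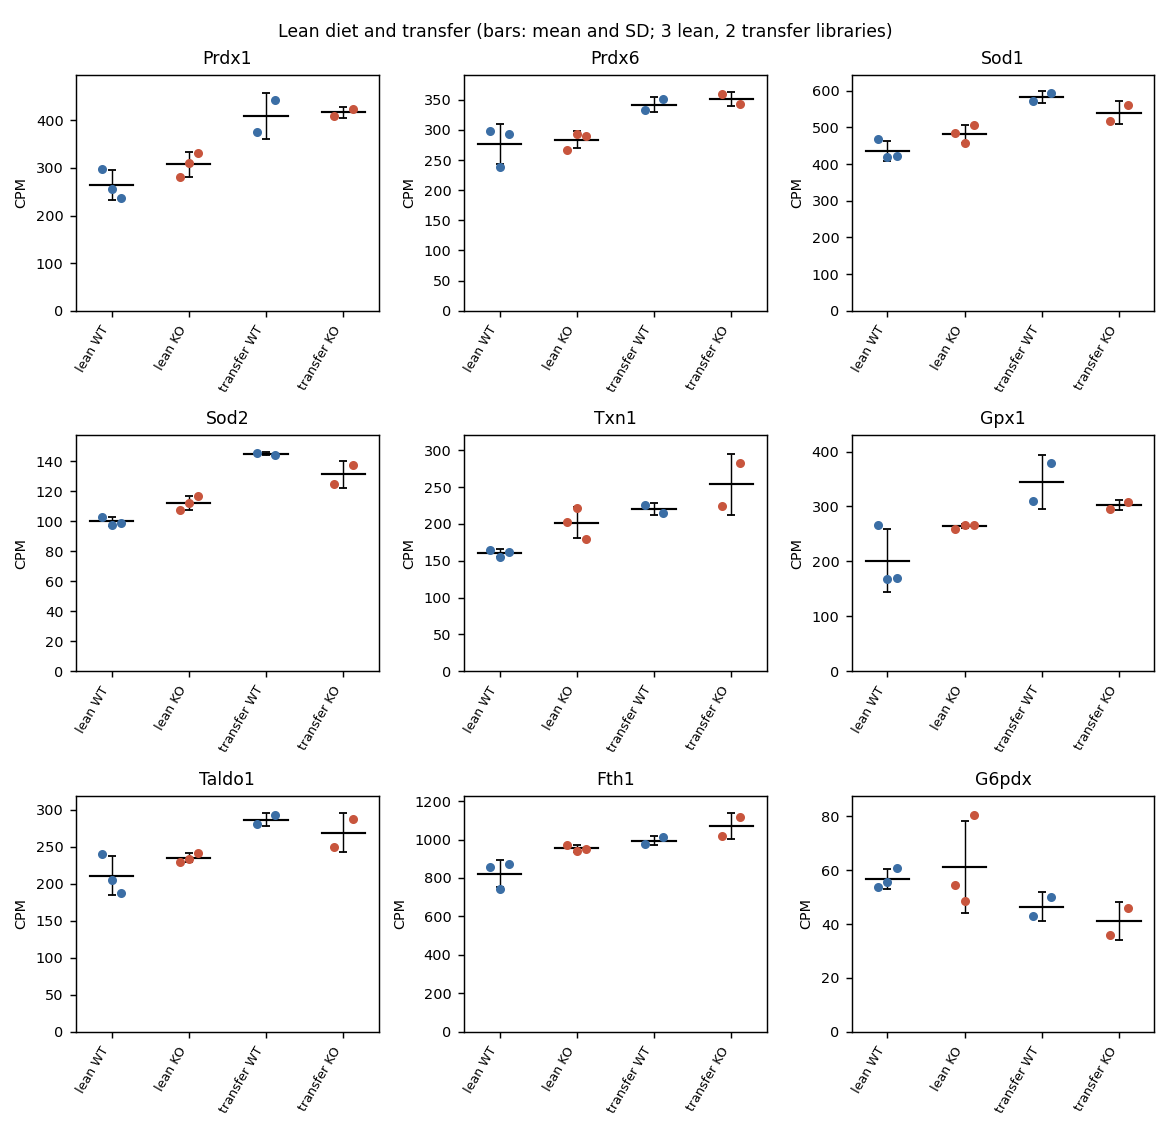
CPM of the 9 redox genes called between transfer and lean libraries in each library (points), with group mean and SD (bars, 3 lean and 2 transfer libraries per genotype). Prdx1 rises from 264 and 308 CPM in lean WT and KO to 409 and 416 after transfer, and G6pdx is the one gene that is lower.

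By genotype, transfer against lean called 7 redox genes in WT (10.5% of all genes called), Gclc, Gpx1, Prdx1, Sod1, Sod2, Taldo1 and Txn1, and 0 in KO (3.35%), where 6 of 42 had an unadjusted p under 0.05. Prdx1 had a log2 fold change of 0.63 (adjusted p = 0.00577) in WT and 0.44 (adjusted p = 0.0908) in KO, and Gpx1 one of 0.77 (adjusted p = 0.00914) in WT and 0.19 (adjusted p = 0.643) in KO. Gclc pointed opposite ways, 1.33 (adjusted p = 0.0397) in WT and -0.56 (adjusted p = 0.546) in KO. How many of all genes had an unadjusted p under 0.05 in KO alone was not counted. The test of the difference between the genotypes called 0 of 42 redox genes and 4 of the 12523 genes tested. Among the redox genes the smallest adjusted p was 0.434, for Gclc. In this test 2 redox genes had an unadjusted p under 0.05, against 915 of the 12523 genes tested. A difference between the genotypes in this response is thus not shown.

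Transfer, library set, depth and age (20 weeks for transfer, 18 weeks for lean) cannot be told apart. The titles of the transfer libraries name no diet, so a difference in diet from the lean mice cannot be told apart either. At the equal depth the transfer libraries had 16304 to 16749.6 genes in WT and 16627 to 16886 in KO, fewer than any lean library. The nuclear transcripts Malat1 and Neat1 took 0.326 to 0.340% and 0.328 to 0.372% of the counts in transfer WT and KO against 0.218 to 0.275% and 0.284 to 0.295% in lean WT and KO, with no overlap. The B cell sum was 132 to 167 and 137 to 155 CPM in transfer WT and KO libraries, below all lean ones. The sum of the 10 Treg identity genes was 9697 to 10099 and 10223 to 10767 CPM against 5766 to 7232 and 6861 to 7617 in lean WT and KO. Klrg1, Il1rl1 and Il2ra carried most of that rise. Foxp3 had group means of 575 and 487 CPM in lean WT and KO and 660 and 597 after transfer. Cd3e had 755 and 729 CPM in lean WT and KO and 706 and 738 after transfer. The sum of 9 heat shock genes was 3541 to 4269 and 3109 to 3970.4 CPM after transfer and 2882 to 3054 and 2865 to 5015 on the lean diet, so that the WT groups did not overlap and the KO groups did. Their part in the redox differences was not tested. Leaving out transfer WT 2 left 4 genes called, Prdx1, Sod1, Sod2 and Txn1, and leaving out transfer KO 2 left 3, Gpx1, Prdx1 and Sod2, with the lone transfer library of that genotype assumed to vary like the other groups. Prdx1 and Sod2 kept their call whichever of the 10 libraries was left out, whereas Prdx6 kept it in 4 of the 10 fits and Fth1 and G6pdx in 2 each. The lean libraries also served the diet comparisons, so the lower values of Txn1 and Gpx1 at 16 weeks and their higher values after transfer share the same controls.

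**Figure D5:**
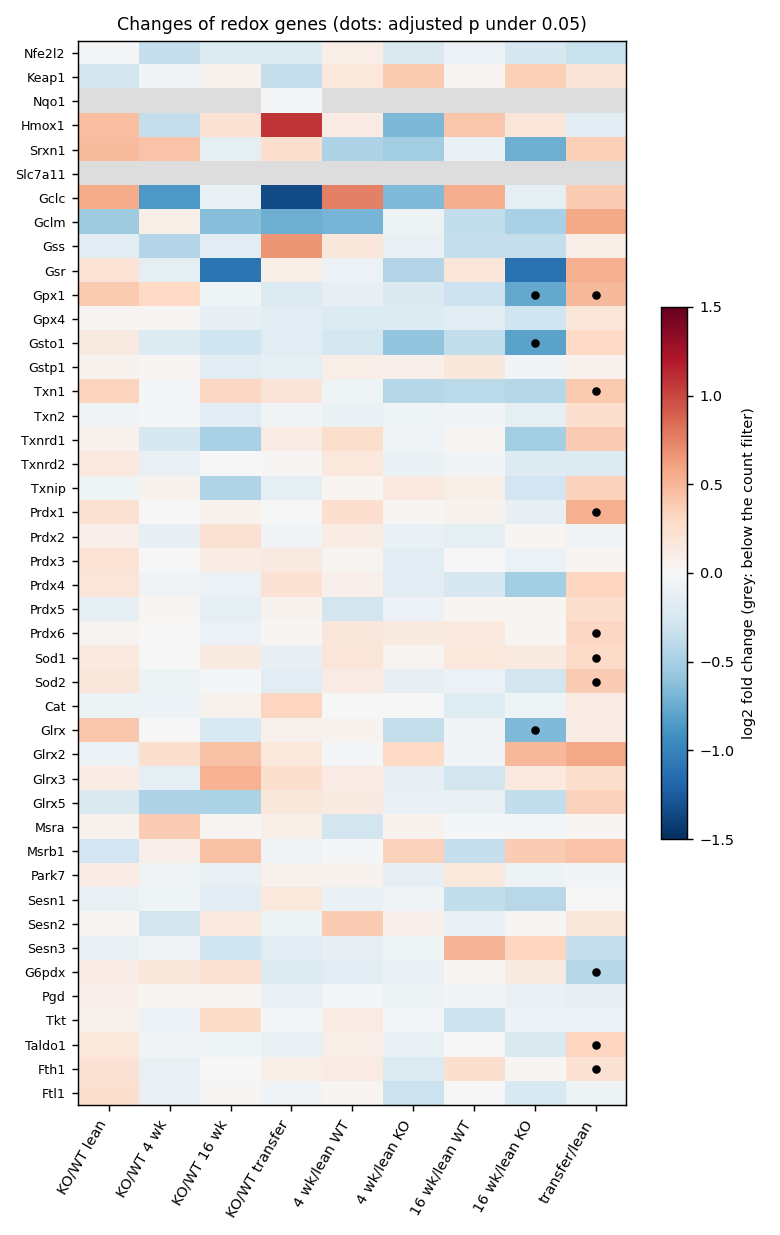
Log2 fold change of each tested redox gene (rows, by role) in the genotype, diet and transfer comparisons (columns), with dots on the genes called. The only dots in the columns shown are 3 in 16 weeks against lean KO and 9 in transfer against lean.

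Another 125 genes of the same pathways, in 8 lists, were followed alongside. Of these 104 passed the filter in the diet libraries, and 0 were called by edgeR in any KO against WT comparison, in either interaction, at 4 weeks against lean, at 16 weeks against lean in WT or at 16 against 4 weeks. At an unadjusted p under 0.05 there were 3 to 14 of them in the KO against WT comparisons, 6 in each interaction, 2 to 12 at 4 weeks, 8 at 16 weeks in WT and 16 at 16 against 4 weeks. Of all genes tested these were 4.62 to 9.15% in the KO against WT comparisons, 4.56 and 8.49% in the interactions, 5.59 to 8.04% at 4 weeks, 8.76% at 16 weeks in WT and 13.8% at 16 against 4 weeks. The genes of these lists that DESeq2 called were not counted. At 16 weeks against lean, in the mean of both genotypes, 3 of 104 were higher and 6 lower, where 2.92% and 3.72% of all genes were. The higher genes were Cybb (log2 1.46, adjusted p = 0.00954), the catalytic subunit of the phagocyte NADPH oxidase, Arrdc4 (log2 0.93, adjusted p = 0.0113), a relative of Txnip, and Mgst2 (log2 0.54, adjusted p = 0.0478), a microsomal glutathione transferase. Among the lower ones were Txndc17 (log2 -0.45, adjusted p = 0.0125), a thioredoxin-like protein, Mgst3 (log2 -1.36, adjusted p = 0.0219), Atf4 (log2 -0.32, adjusted p = 0.0256) and Ddit4 (log2 -0.79, adjusted p = 0.0424) of the amino acid stress response, and the selenoprotein Selenow (log2 -0.33, adjusted p = 0.0459). In KO alone 2 were higher, Cybb and Mthfd2, a mitochondrial folate enzyme, and 5 lower, among them Sqstm1, Mgst3, Selenow and Txndc17, where 2.36% and 3.59% of all genes were. The thioredoxin-like, glutathione and selenium lists each had 1 lower gene called in KO, and Sqstm1, which binds KEAP1, was the 1 of 14 called among NRF2 partners.

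Between transfer and lean libraries 10 of 108 tested genes of these lists were higher and 6 lower, beside 7.35% and 8.81% of all genes. Of 16 selenoprotein and selenium genes tested 5 were higher and 0 lower, 9 had a positive log2 fold change, and the median was 0.08. The 5 were Selenof, Selenow, Selenop, Selenok and Selenom, at log2 fold changes of 0.38, 0.35, 0.32, 0.34 and 0.97. Among NADPH-supplying genes Idh1 (log2 1.09, adjusted p = 0.00222), the cytosolic isocitrate dehydrogenase, and Nadk (log2 0.49, adjusted p = 0.0069), NAD kinase, were higher, whereas Idh2 (log2 -0.92, adjusted p = 0.0129), the mitochondrial isocitrate dehydrogenase, was lower. Msrb3 (log2 2.18, adjusted p = 0.00245), a methionine sulfoxide reductase, Txndc17 (log2 0.33, adjusted p = 0.0441) and Cyba (log2 0.35, adjusted p = 0.00367), the partner subunit of Cybb, were higher too. Arrdc3 (log2 -1.45, adjusted p = 0.011) was lower, and Gsta4 and Trib3 were also called lower, on fewer than 10 counts in each of these libraries. Cybb itself had 17.1 ± 8.17 and 16.1 ± 2.93 CPM in lean WT and KO libraries (SD, n = 3), 62.8 ± 25.8 CPM in 16-week KO libraries (SD, n = 3) and 0.532 ± 0.496 CPM in transfer WT libraries (SD, n = 2), with no counts in either transfer KO library. Bach2, a repressor that competes with NRF2 for its sites, had 14.4 ± 2.36 and 13.4 ± 2.88 CPM in lean libraries (SD, n = 3) and 0.0903 ± 0.128 and 1.59 ± 0.424 in transfer ones (SD, n = 2). Both genes are also known from B cells. Of the B cell genes Ighm had 413 and 344 CPM in lean WT and KO, 966 in 16-week KO and 144 and 133 in transfer libraries, whereas Cd79a had 1.01 and 2.77, 1.43, and 1.88 and 2.14 in the same groups and so did not follow it. The part of B cell RNA in their levels was not tested.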

How the data were processed

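Visceral fat Tregs were profiled in 22 RNA-seq libraries. The authors deposited 1 table of raw counts per gene symbol, made, per the submitters' processing notes, with STAR 2.7.3a, mm10 and featureCounts. The counting program's version and its handling of strand were not stated. Per the labels' protocols, cDNA primed with oligo(dT) was cut with transposase (Nextera XT), which does not mark strand, and read as pairs of 38 bases. From the deposited counts, edgeR 4.0.16 in R 4.3.3 computed TMM factors and quasi-likelihood tests on genes kept by filterByExpr (minimum count 10), with Benjamini-Hochberg adjustment over all genes kept and a threshold of 0.05. The 18 diet libraries shared 1 fit, the 4 transfer libraries had their own, and transfer against lean used all 22. A comparison written as a mean averages the WT and KO differences.

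Gene positions and exon lengths came from GENCODE vM21 and promoters from RefSeq (GRCm38.p6). Members called were named with every library's value. Where fewer than 4 were called, the 2 smallest p in each direction were added, and in each role group the gene of highest level and, among genes with at least 10 CPM in a group, the gene of widest spread (ratio of highest to lowest group mean) were described. The members, the other redox lists, the markers and the tests were chosen with earlier results of these data known. Alternatives were RLE size factors, no low-count filter, DESeq2 1.42.0, the replicate number as a block, and each library left out. After seeing the data, fits without the 3 libraries richest in genes, each genotype alone for transfer, and the test of transfer by genotype were added. The replicate numbers were not used as pairs in the main tests. Deviations from the group mean in same-numbered WT and KO libraries had correlations from -0.0474 to 0.105. Such values cannot exclude a pairing, since deviations from means of 2 or 3 libraries also hold counting noise. No pair of replicates held identical values. Promoter searches were exact matches. The tests were checked on simulated data. Pseudogene copies carried at most 4.04% of a member's level except for Slc7a11, and intervals and floors cover counting error or library spread only. For 1 gene of the further lists, which stays in their counts, the values are not reported here.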

Additional observations from a re-analysis of the deposited data

How the results depend on the processing

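The count of redox genes called was the same or within 1.5 times of it under RLE factors and the replicate block in all 15 comparisons, and 0 genes reversed. With the replicate number as a block, 4 were called at 16 weeks against lean in the mean of both genotypes, 2 in KO and 8 for transfer against lean, and the pairing is not given by the labels. With no low-count filter, 1 gene, Gsr, was called at 16 weeks KO against WT and 1, Gsr, in the 16-week interaction, and 2 (Gpx1 and Sesn3) at 16 against 4 weeks, where DESeq2 also called 2. Leaving out each library in turn gave 2 to 4 genes at 16 weeks in the mean, 0 to 2 in KO, 0 to 2 at 16 against 4 weeks and 3 to 8 for transfer against lean. Without the 3 libraries richest in genes the counts at 16 weeks were 0 in the mean and 0 in KO, but 1 library then stood for the 16-week KO group, assumed to vary like the other groups, so these counts say nothing about the libraries left out. The KO libraries alone gave 0 for transfer, with fewer libraries. Over all genes, KO against WT called 5, 8, 5, 21 and 20 genes (lean, 4 weeks, 16 weeks, mean, transfer), against 24, 8, 47, 38 and 61 by DESeq2 and 135, 75, 428, 273 and 102 with no filter, and 40 in the transfer libraries with the block. For diet DESeq2 called 0, 21 and 47 genes at 4 weeks (WT, KO, mean), where edgeR called 0, and 82 at 16 weeks in WT, where edgeR called 10. With no filter these were 40, 112, 161 and 178, and 1085 at 16 weeks in KO and 536 at 16 against 4 weeks, where edgeR with the filter called 696 and 248. The 16-week counts over all genes by DESeq2 were 968 in KO and 391 against 4 weeks. The interactions called 0 genes, against 0 and 26 by DESeq2 and 22 and 258 with no filter. The cause of these shifts was not tested. The median over the redox genes moved by less than its spread between libraries in all 200 settings. With 2 or 3 libraries a group and 1955940 to 5990319 counts each, genes near 10 CPM, such as Gclc and Srxn1, had intervals that reached past 1.5-fold. So did some genes of much higher level, among them Glrx, Gpx1 and Txn1 for KO against WT on the lean diet.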
